A study of Mus musculus with 18 samples.

Results

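The Zfp genes described here are mouse zinc finger genes with m6A-seq peaks in several cell types. They were chosen from the authors' final peak lists: a gene symbol of Zfp and digits, with at least 1 peak in at least 2 of the 3 final lists (ESCs, EBs and MEFs), leaving out Zfp42, Zfp57 and Zfp281. This rule gave 200 genes of the 7995 symbols that occur in any final list. Because the presence of final peaks chose the genes, that presence is a description and was not tested.

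In m6A-seq, an antibody pulls down RNA fragments that carry N6-methyladenosine (m6A), which are sequenced along with unenriched input RNA. Embryoid bodies (EBs, 3 enriched libraries, replicates A, B and C) were aggregates grown from the stem cells for 8 to 21 days in serum medium. MEFs were fibroblasts grown from E13.5 mouse embryos, Mettl3-knockout ESCs gave 1 enriched library labelled as a negative control, and wild-type embryonic stem cells (ESCs, 3 enriched libraries) were the BVSC line in N2B27 medium with LIF, 1 to 3 µM CHIR99021 and 1 µM PD0325901. The labels give C57BL/6 as the strain, ESC values rest on 1 line, EB values on unsorted aggregates with a range of ages, and the knockout on 1 culture. The files hold peak positions for each EB, ESC and knockout library and 1 final list per wild-type cell type, with no score or read count, so the depth is unknown and MEF values have no replicate error. A peak also requires the transcript to be present, and in such bulk samples fewer cells with the transcript and less of it per cell cannot be told apart.

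Most Zfp proteins carry arrays of C2H2 zinc fingers, short modules in which a pair of cysteines and a pair of histidines hold a zinc ion and a helix reads DNA. Many of them have a KRAB domain that binds TRIM28, a co-repressor that brings the histone methyltransferase Setdb1 to transposable elements and imprinted loci. In most such genes the KRAB domain is encoded by short upstream exons and the whole finger array by the long last exon. m6A is written on nuclear RNA by Mettl3 with Mettl14, mainly in DRACH sequences such as GGAC, and in most mRNAs it lies in long internal exons, last exons and around stop codons.

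Libraries differed in how many peaks they held. EB replicates A, B and C listed 18185, 21509 and 12364 peaks, and ESC replicates A, B and C listed 10515, 19816 and 17698. ESC replicate A stood apart, with peaks on 79.1% of the other genes of at least 2 final lists, against 93.6% and 98.5% in the other two ESC libraries. Of 8 ESC marker genes (Nanog, Sox2 and Esrrb among them), 3 had a final EB peak, 1 a final MEF peak and 5 a final ESC peak. Of 8 markers of EB derivatives, 5 had a final EB peak and 0 a final MEF peak, while Sox17, Gata4 and Gata6 had one in the ESC list as well. Of 8 fibroblast markers, 3 had a final EB peak (Twist1, Prrx1 and Pdgfrb), 3 a final MEF peak (Thy1, Twist1 and Pdgfrb) and 2 a final ESC peak (Col1a2 and Pdgfrb), so this list did not set the MEF peaks apart. Col1a1 and Col3a1 had no final MEF peak. The part that other cell types in a culture have in the Zfp values was not tested.

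Windows of mRNA sequence at Zfp sites show the kinds of place in which peaks lay. A site is a region of overlapping final peaks. Each window of 101 nt is centred on the bases of the site that the largest number of EB and ESC libraries covered, reads 5′ to 3′ on the gene's strand in the GRCm38 (mm10) build, and has GGAC in capitals. The windows were picked by hand as examples and are not typical in GGAC content. The first pair lies in the last exon before the first finger, a stretch in which several GGAC can follow each other closely. Over the genes divided into parts below, 29.6% of all windows of this length in that stretch hold a GGAC.
Zfp445, chr9:122853505-122853605, minus strand: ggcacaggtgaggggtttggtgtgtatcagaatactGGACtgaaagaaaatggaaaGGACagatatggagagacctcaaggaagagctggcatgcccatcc
Zfp568, chr7:30022298-30022398, plus strand: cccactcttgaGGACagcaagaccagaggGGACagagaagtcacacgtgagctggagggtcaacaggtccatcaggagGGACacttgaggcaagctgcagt
The next 5 lie inside finger arrays. They are shown because arrays repeat the codons of the linker between fingers, which recur in slightly changed form from gene to gene, and hold few GGAC. The Zfp7 window is an exception: such a linker does not follow its finger, and its GGAC lies beyond that finger.
Zfp747, chr7:127374262-127374362, minus strand: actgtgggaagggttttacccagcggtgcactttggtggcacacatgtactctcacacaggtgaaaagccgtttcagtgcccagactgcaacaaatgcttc
Zfp7, chr15:76891502-76891602, plus strand: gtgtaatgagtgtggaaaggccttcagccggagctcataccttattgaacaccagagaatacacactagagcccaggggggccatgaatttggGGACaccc
Zfp951, chr5:104815001-104815101, minus strand: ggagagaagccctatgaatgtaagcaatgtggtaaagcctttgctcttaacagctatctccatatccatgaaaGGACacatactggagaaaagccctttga
Zfp160, chr17:21026525-21026625, plus strand: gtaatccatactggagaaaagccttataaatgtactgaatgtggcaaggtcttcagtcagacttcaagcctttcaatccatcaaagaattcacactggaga
Zfp97, chr17:17145014-17145114, plus strand: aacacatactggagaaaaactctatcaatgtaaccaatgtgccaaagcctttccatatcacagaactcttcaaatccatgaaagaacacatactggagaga
The last lies in exon 2 of the 3 exons of Zfp646, whose 25 fingers are all encoded before the last exon.
Zfp646, chr7:127882378-127882478, plus strand: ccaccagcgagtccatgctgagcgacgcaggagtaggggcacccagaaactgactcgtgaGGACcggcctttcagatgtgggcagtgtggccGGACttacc

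Of the 200 genes, 136 had final peaks in all 3 lists, 30 in ESCs and MEFs, 25 in ESCs and EBs, and 9 in EBs and MEFs. Over all 5576 coding genes in at least 2 lists these patterns made up 65.5%, 10.4%, 20.4% and 3.64%. A final EB peak was present for 170 Zfp genes, a final MEF peak for 175 and a final ESC peak for 191. Just outside the rule were 48 Zfp symbols in 1 list, of which 38 had 1 peak, and their widest peak had a median of 182.5 bp. Just inside were 64 genes in exactly 2 lists, of which 27 had 2 peaks in all, and their median widest peak was 326 bp, against 607.5 bp for the genes in all 3 lists.

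The genes are unevenly spread over the genome: chromosome 7 holds 54 of them, chromosome 17 holds 24 and chromosome 8 holds 14. A codon search for C2H2 fingers (cysteine, 2 codons, cysteine, 12 codons, histidine, 3 codons, histidine) found 1928 fingers, with a median of 10 per gene and 25 in Zfp646. No finger of this spacing was found in 16 genes, 24 had 1 to 4 and 160 had at least 5. Last exons encode 1742 of the fingers (90.4%). The last exon made up 76.5% of the summed mRNA length of the Zfp genes, against 52.2% for the other 5376 genes.

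The final lists held 1162 Zfp peaks at 521 sites. Of the genes, 42 had 1 site, 74 had 2, 47 had 3 and 37 had at least 4. All final peaks lay in the last exon in 129 genes, in last and other exons in 62, and outside the last exon in 9.

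Zfp peaks lay in the last exon more often than peaks of other mRNAs, at about the share of mRNA length that the last exon takes. The last exon held 71.7% of Zfp peaks in the final EB list (95% Wilson interval 66.6 to 76.3), 76.9% in the MEF list (72.7 to 80.6) and 75.4% in the ESC list (70.8 to 79.5). Peaks of the other genes were in the last exon at 55.5%, 59.2% and 58.0% in the same lists. The 827 other genes with at least 50% of their coding sequence in the last exon, which fills 86.1% of their mRNA, reached 86.2%, 91.3% and 89.3%. The 26 Zbtb genes, whose zinc fingers are joined to a BTB domain, had 70.0%, 70.8% and 74.5%. Intervals cover counting error only, and no test between gene groups was made.

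Within the mRNA, Zfp peaks were mainly coding. The coding share was 76.6% in EBs, 75.7% in MEFs and 71.4% in ESCs, against 53.2%, 56.9% and 51.5% for the other genes. The 3′ UTR held 17.2%, 19.7% and 22.7% of Zfp peaks, against 34.5%, 35.3% and 36.8%. Peaks centred within 200 nt of the stop codon made up 19.7%, 15.2% and 19.0% of Zfp peaks, against 27.7%, 26.7% and 28.2%. Peak density was 0.428, 0.573 and 0.449 peaks per kb of mRNA in Zfp genes, against 0.348, 0.426 and 0.386 in the other genes with a peak in the same list. The 827 other genes with a long coding last exon had coding shares of 72.1%, 74.4% and 68.7%. Their 3′ UTR shares were 17.3%, 19.2% and 21.9%, near the Zfp values, and their densities 0.430, 0.590 and 0.505 peaks per kb. Within 200 nt of the stop codon they had 24.1%, 24.3% and 27.5%. Zbtb genes had coding shares of 75.0%, 84.6% and 78.7% and densities of 0.310, 0.516 and 0.358 peaks per kb. The number of fingers went with the position: genes with at least 10 fingers had 87.4%, 87% and 88.0% of their peaks in the last exon, and genes with none had 43.3%, 61.8% and 53.6%. Last-exon length differed likewise, with a median of 87.3% of the mRNA in the former and 57.2% in the latter. Genes without a finger had only 30, 34 and 28 placed peaks.

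In 140 Zfp genes with at least 5 fingers, the whole array is encoded in the last exon, so the mRNA can be divided into upstream exons, the last-exon stretch before the first finger, the array, the coding end and the 3′ UTR. Peaks were denser than the mRNA mean in all 3 coding parts of the last exon and sparser in the 3′ UTR. The stretch before the first finger is 9.63% of the length of these mRNAs and held 23.8%, 21.8% and 25.4% of peaks in EB replicates A, B and C, against 18.1%, 20.5% and 22.4% for ESC replicates A, B and C. Its density was 2.46 ± 0.187 times that of the whole mRNA in EBs and 2.11 ± 0.221 times in ESCs (SD, n = 3 libraries each), and the groups overlapped. The array is 27.9% of the length and held 42.0% ± 0.0664 of EB peaks and 41.7% ± 2.07 of ESC peaks (SD, n = 3 each), or 1.51 ± 0.00238 and 1.5 ± 0.0745 times the mean density. The short coding end after the last finger, 1.70% of the length, held 8 to 15 peaks per library. Its relative density was 1.99, 2.47 and 2.06 in EB replicates A, B and C, against 3.70, 2.06 and 1.5 in ESC replicates A, B and C, and without ESC replicate A the ESC mean of 2.42 was 1.78. All 6 libraries were above 1 in these 3 parts.

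The 3′ UTR of these genes is 47.3% of the length and was below the mean density in all 6 libraries. It held 17.0%, 17.4% and 21.1% of peaks in EB replicates A, B and C, against 25.2%, 23.7% and 28.1% in ESC replicates A, B and C, and the groups did not overlap. The density relative to the whole mRNA was 0.390 ± 0.0476 in EBs and 0.543 ± 0.0473 in ESCs (SD, n = 3 each), and without ESC replicate A the ESC mean was 0.548. The upstream exons were at 1.03, 1.08 and 0.585 times the mean density in EB replicates A, B and C, against 0.467, 0.878 and 0.473 in ESC replicates A, B and C, and were sparser than the 3′ UTR in ESC replicates A and C. The final lists placed 45.8% of EB peaks, 49.5% of MEF peaks and 41.7% of ESC peaks in the array. Other groups of genes were not divided into these parts, so the shares have no comparison beside them.

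**Figure D1:**
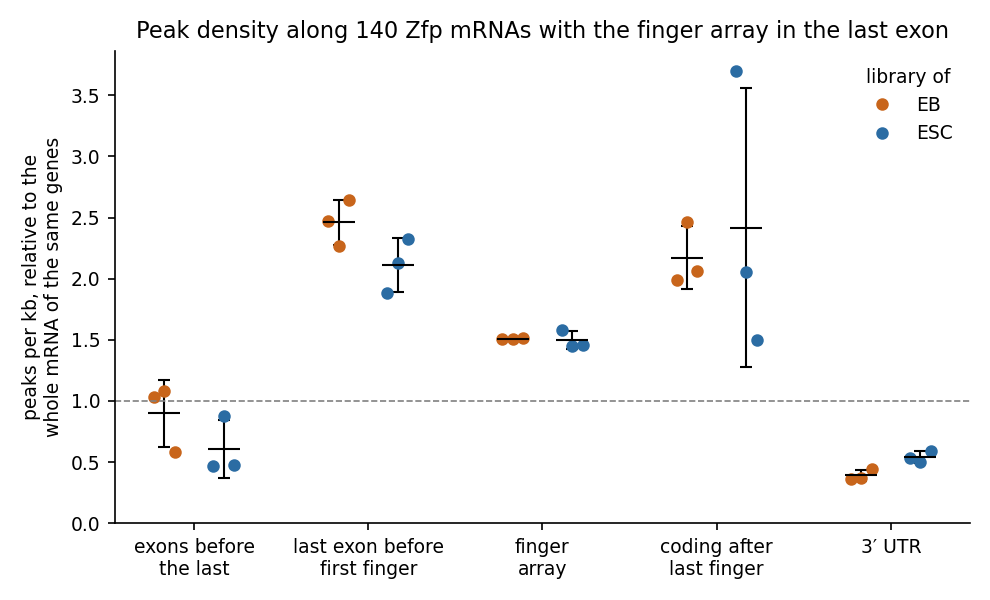
Peak density in 5 parts of 140 Zfp mRNAs, as peaks per kb divided by the density over the whole mRNA of the same genes (dashed line at 1). Points are libraries (EB orange, left; ESC blue, right), horizontal bars are means and whiskers SDs over 3 libraries. The 3′ UTR lies between 0.359 and 0.594 in all 6 libraries and the array between 1.45 and 1.58.

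Measured from the first base of the first finger, most peak centres lay downstream, with the highest 200 nt bin just upstream of it. Downstream centres made up 68.2% in EBs, 71.9% in MEFs and 71.3% in ESCs. The 200 nt before that base held 30, 38 and 34 centres in the same lists, and the 200 nt after it 15, 25 and 15. Peak centres within 200 nt of that base made up 25.1% of the 179 EB peaks, 22.4% of the 281 MEF peaks and 21.3% of the 230 ESC peaks of these genes. The median centre was 397 nt downstream of it in EBs, 496 nt in MEFs and 539 nt in ESCs.

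**Figure D2:**
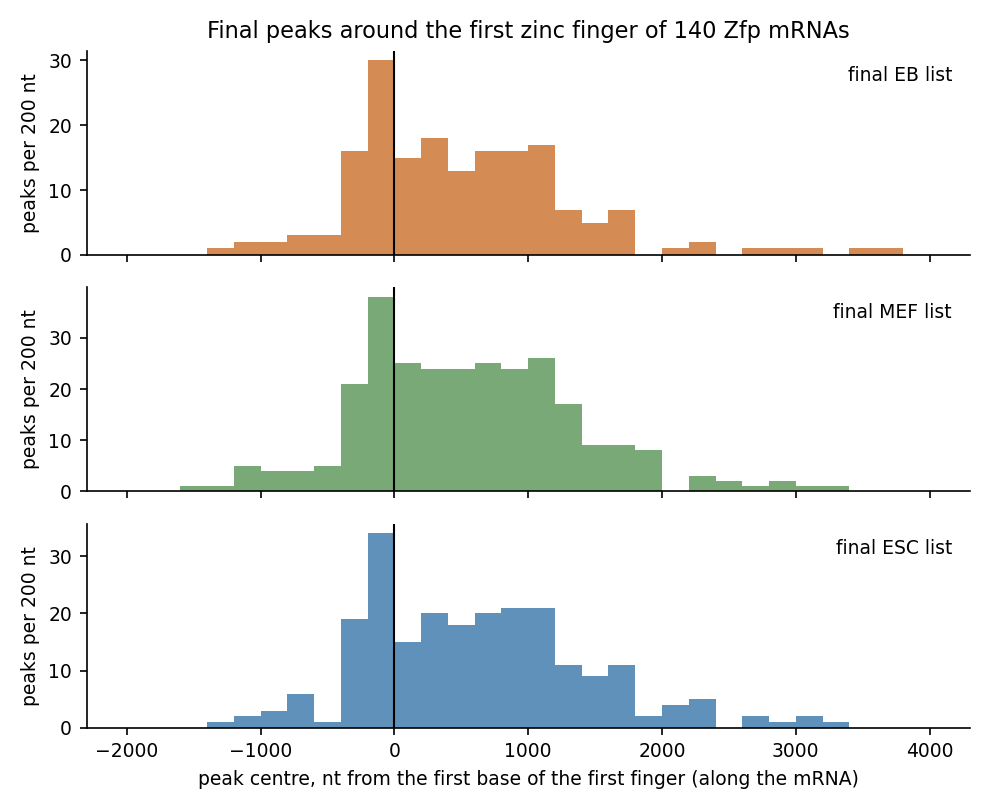
Final peaks of 140 Zfp genes by distance of the peak centre from the first base of the first finger, along the mRNA, in bins of 200 nt (vertical axis: number of peaks; 1 MEF and 1 ESC peak lie beyond the axis). In each list the bin just before the first finger is the highest, and the counts run on over the array.

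The array is poor in GGAC, searched on the mRNA strand only. It has 1.69 GGAC per kb, against 3.64 in the stretch before it, 6.17 in the upstream exons and 2.32 in the 3′ UTR. AAACC, another DRACH form (A, G or T, then A or G, then AC, then A, C or T), made up 25.9% of DRACH matches in the array and 5.30% in the upstream exons, and can fall in the codons of the linker between fingers. These are shares of sequence: AAACC near peaks is not given here, and the windows printed above hold none. Of array peaks, 23.2% in EBs, 29.5% in MEFs and 21.9% in ESCs had a GGAC within 50 nt of the centre, against 15.8% of all windows of that length in the array. Of peaks before the first finger, 34.0%, 42.9% and 46.2% had one, against 29.6% of windows.

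Over all Zfp genes, GGAC was near 41.4% of EB, 43.6% of MEF and 44.2% of ESC final peaks, against 27.5%, 27.5% and 26.8% of all windows of the same mRNAs. Peaks of the other genes had it in 54.9%, 58.0% and 57.6%, against 35.3%, 35.1% and 35.4% of their windows. The excess over windows was 15.5 ± 3.22 percentage points in EB libraries and 17.4 ± 2.76 in ESC libraries for Zfp genes (SD, n = 3 each), a difference smaller than the spread between libraries. A match is a sequence near a peak and not a mapped m6A base.

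Of the 10 genes with the widest final peaks, 4 had that peak centred in the array (Zfp7, Zfp568, Zfp747 and Zfp623) and 2 in the 3′ UTR (Zfp871 and Zfp41). In Zfp516, Zfp865 and Zfp217 it was coding and before the last exon, and in Zfp148 coding and in the last exon. Zfp7, with 15 fingers in its last exon (exon 5 of 5), had 1 site, chr15:76890030-76891784, and its widest final peak spanned 1701 bp. Library peaks at that site, here and below as the summed width in bp, covered 1408, 1297 and 1017 bp in EB replicates A, B and C and 928, 1092 and 768 bp in ESC replicates A, B and C, and the groups overlapped. Width says how far enriched fragments reach, not how much of the RNA is methylated.

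Zfp568, a KRAB protein that represses a placental transcript of Igf2, had 2 sites in its last exon. The array site, chr7:30022827-30024389, covered 1245, 1559 and 956 bp in EBs and 816, 1010 and 1008 bp in ESCs, with overlapping groups. The site before the fingers, printed above, covered 537, 512 and 252 bp in EBs and 174, 312 and 149 bp in ESCs, and holds 5 GGAC.

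Zfp445, which keeps methylation at imprinted loci together with TRIM28, had 3 sites, all in the 3 final lists. Its array site, chr9:122851912-122852714, holds 0 GGAC and covered 758, 654 and 185 bp in EBs and 281, 377 and 514 bp in ESCs. The site before the fingers, chr9:122853122-122853814, holds 4 GGAC and covered 384, 622 and 257 bp in EBs, against 164 and 500 bp in ESC replicates B and C with no peak in A. For both sites the groups overlapped. Zfp809, which silences retroviruses through their primer binding site, had peaks at the start, in exon 5 of 6 and close to the stop codon, and at these sites the widest library peak was 335 bp.

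Other Zfp genes carried several separate sites. Zfp462, a heterochromatin factor of ESCs, had 8 sites, 7 of them in exon 3 of 13. Its widest site, in the 3′ UTR at chr4:55080658-55081764, covered 843, 958 and 1034 bp in EBs and 838, 783 and 1009 bp in ESCs, so the groups overlapped. Zfp292, Zfp704, Zfp407 and Zfp318 also had 8 sites each. In Zfp292, 7 of them lay in exon 8 of 8, and in Zfp704, which has no finger of the searched spacing, 7 lay in the 3′ UTR.

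Zfp646 had 5 sites, all in exon 2 of 3, and each was present in the 3 final lists and in all 6 libraries. Its site at chr7:127882089-127882942 covered 768, 748 and 559 bp in EBs and 697, 692 and 405 bp in ESCs. Zfp217, a regulator known in mouse ESCs to bind Mettl3, had wide coding sites in exons 2 and 4 of 6. At chr2:170119423-170120795 its peaks covered 1250, 1357 and 652 bp in EBs and 608, 942 and 615 bp in ESCs, with overlapping groups. Zfp148 had a last-exon site, chr16:33496110-33497742, of 1223, 1626 and 784 bp in EBs and 717, 1368 and 1088 bp in ESCs.

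Among genes with known roles outside the KRAB system, Zfp36, which binds AU-rich 3′ UTRs and promotes decay, had its coding peak at chr7:28377997-28378542. It covered 540, 478 and 223 bp in EBs, against 290 and 199 bp in ESC replicates B and C and no peak in A. Zfp91, a ubiquitin ligase, had 1 site next to its stop codon, of 562, 592 and 420 bp in EBs and 449, 392 and 359 bp in ESCs, so that the ranges overlapped. Zfp598, the ligase that marks collided ribosomes, likewise had 1 site, centred 34 nt before its stop codon. Zfp706, a gene needed for ESCs to leave self-renewal, had 1 final site, at its start.

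**Figure D3:**
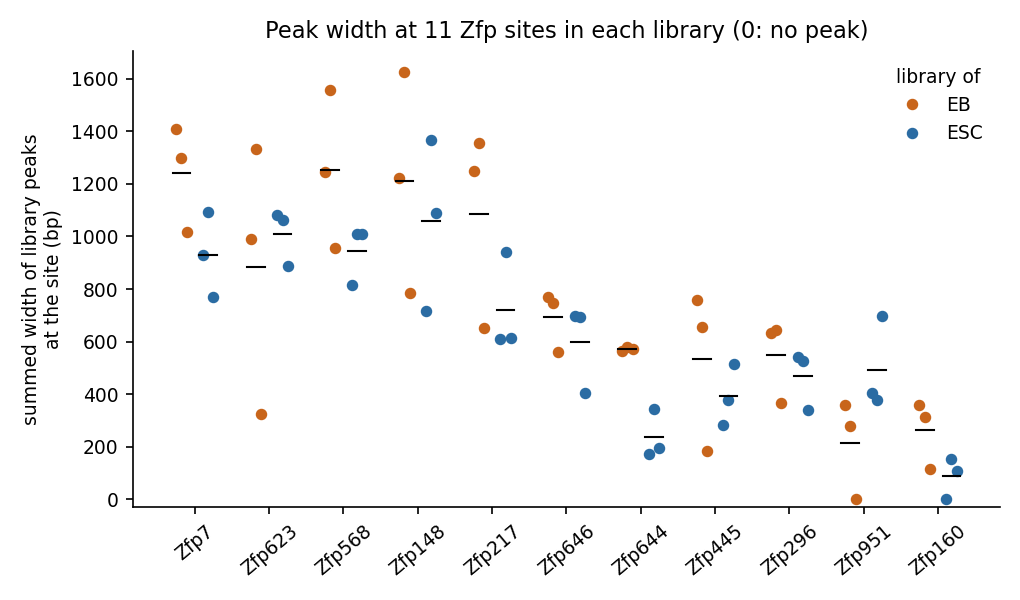
Summed width in bp of the peaks of each EB (orange, left) and ESC (blue, right) library at 1 site of each of 11 named Zfp genes. Points are libraries, bars are means of 3 and 0 means no peak. EB and ESC points overlap at most sites, and at the Zfp644 site EB libraries gave 564 to 581 bp and ESC libraries 171 to 343 bp.

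Sites were shared between cell types to differing degrees. Of the 521 sites, 206 (39.5%) held a peak in all 3 final lists, against 40.9% of the 10777 sites of the other genes. Sites of ESCs and EBs without MEFs were 9.79% of Zfp sites and 17.0% of other sites, and sites in the MEF list alone were 20.2% and 13.9%. This was not particular to Zfp genes: the same classes were 8.96% and 26.9% of the 67 Zbtb sites. They were 8.57% and 31.4% of the 35 sites of Zscan and Zkscan genes, which all have fingers of the searched spacing. The other genes with a long coding last exon had 15.9% and 16.9%. The 105 MEF-only Zfp sites had a median width of 138 bp, against 589.5 bp for the sites in all lists, and EB libraries had a peak at 71 of them and ESC libraries at 56. A site missing from a final list was therefore often present in single libraries of that cell type.

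**Figure D4:**
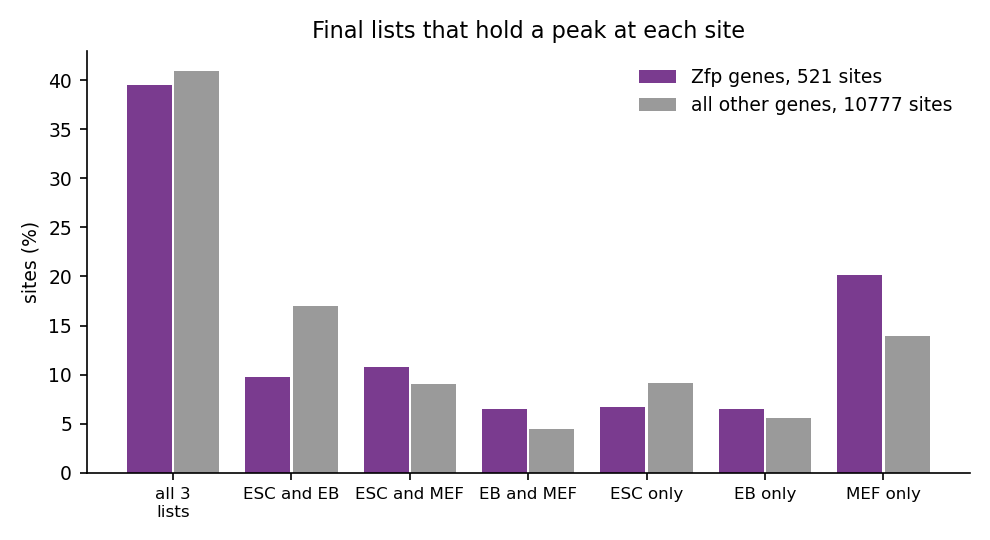
Share of sites (%) by the final lists that hold a peak there, for 521 sites of Zfp genes (purple, left) and 10777 sites of the other genes in at least 2 lists (grey, right). The largest class in both is the sites in all 3 lists, 39.5% and 40.9%.

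By peak, 79.4% of Zfp final EB peaks overlapped a final ESC peak and 75.5% of final ESC peaks overlapped a final EB peak, counting 1 bp as overlap, against 85.5% and 77.7% for the other genes. Of final MEF peaks, 65.5% overlapped a final ESC peak, against 74.1% for the other genes. Of final ESC peaks, 73.4% overlapped a final MEF peak, against 66.8% for the other genes, and 55.5% did so with at least 50% of their length.

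Zfp genes of the ESC and MEF lists only seldom had a peak in EB replicate C, the shortest EB list. Final lists were joined from these libraries, so absence from a list and from a library are linked. Of the 30 Zfp genes in the ESC and MEF lists only, 24 had a peak in EB replicate A, 25 in B and 4 in C. In ESC replicate A, the shortest ESC list, 10 of these 30 had a peak, although all have a final ESC peak. Counts for the other genes of this pattern are not given here, and a part of list length was not tested. Zfp951, the widest of the 30, had a site in its array (printed above) of 359 and 278 bp in EB replicates A and B with no peak in C, and of 405, 377 and 697 bp in ESCs. Zfp248, another, had 261 and 152 bp in EB replicates A and B and none in C, against 281 and 108 bp in ESC replicates B and C and none in A.

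Of the 25 genes in the ESC and EB lists only, Zfp296, a gene expressed in pluripotent cells, had its main site at chr7:19579965-19580603. It covered 631, 644 and 366 bp in EBs and 541, 525 and 338 bp in ESCs, with overlapping groups. Zfp827, also without a final MEF peak, had 3 sites. The 9 genes in EBs and MEFs only were led by Zfp160, whose array site covered 360, 314 and 114 bp in EBs, against 151 and 108 bp in ESC replicates B and C and none in A, and all 9 had a peak in ESC replicate B.

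At the level of genes the EB and ESC libraries shared most Zfp genes. A peak on an exon was found for 191, 190 and 174 of the 200 genes in EB replicates A, B and C and for 137, 199 and 195 in ESC replicates A, B and C. All 6 libraries held a peak for 124 genes (62%), against 69.8% of all genes in at least 2 lists, and 162 did so without ESC replicate A, which alone lacked 38. No gene (0 of 200) had peaks in 3 of 3 EB and at most 1 of 3 ESC libraries, against 2.03% of all genes. In the other direction were Zfp426 and Zfp772 (background 0.628%). At its site before the fingers Zfp426 had 180 bp in EB replicate B alone, against 142, 196 and 108 bp in ESCs, and Zfp772 had 208 bp in EB replicate A alone, against 142, 222 and 142 bp.

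The last-exon share of Zfp library peaks was 68.2%, 68.2% and 69.9% in EB replicates A, B and C, against 71.5%, 73.1% and 76.0% in ESC replicates A, B and C. EB values were all lower, with means of 68.8% ± 0.935 and 73.5% ± 2.31 (SD, n = 3 each) and a difference of -4.76 percentage points. The 3′ UTR share showed the same order, 18.8% ± 1.12 in EBs and 23.8% ± 2.90 in ESCs, without overlap. The other genes had the same order without overlap, 31.9% ± 1.85 in EBs and 36.5% ± 2.94 in ESCs. Those with a long coding last exon had 19.7% ± 0.755 and 22.0% ± 3.42, with overlap. Zbtb genes (20.5% ± 3.80 and 18.9% ± 7.62) and Zscan and Zkscan genes (23.9% ± 5.71 and 20.8% ± 6.35) had the opposite order, also with overlap. The last-exon share of the other genes was 52.0% ± 3.8 in EBs and 57.7% ± 3.68 in ESCs, with overlapping groups. EB samples were also unsorted mixtures of up to 21 days, and which cells the Zfp peaks came from was not tested.

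**Figure D5:**
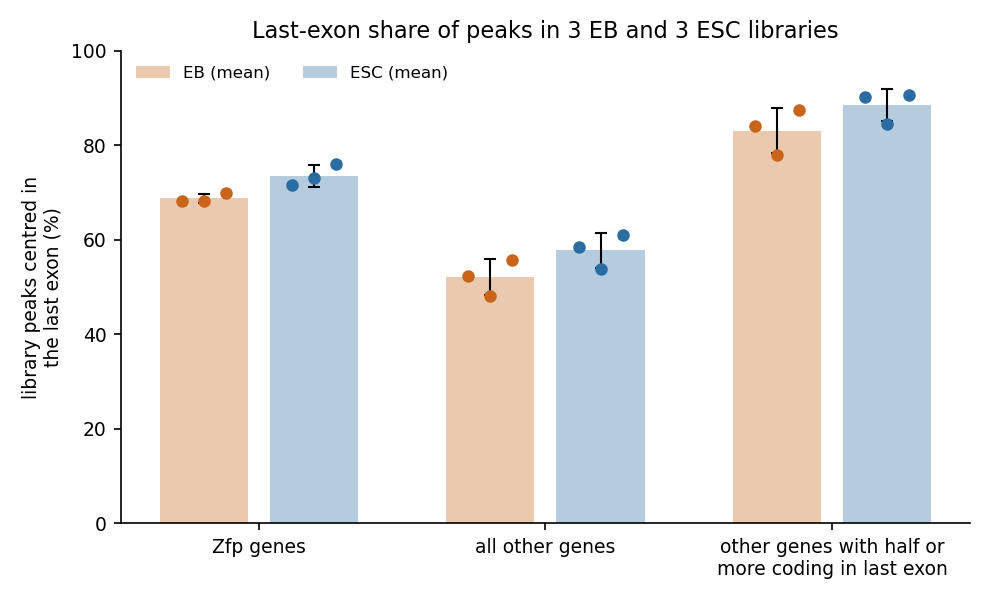
Share (%) of library peaks centred in the last exon for the Zfp genes, all other genes in at least 2 lists, and those other genes with at least 50% of the coding sequence in the last exon. Points are libraries (EB left, ESC right), bars means and whiskers SDs of 3. For Zfp genes the EB points (68.2% to 69.9%) lie below the ESC points (71.5% to 76.0%).

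Peak width was compared between EBs and ESCs by limma on log2 widths, over all 5165 sites with a peak in all 6 libraries, of which 154 lay on 102 Zfp genes. No site passed an adjusted p of 0.05 (0 of 5165, 0%; Zfp sites 0 of 154). At an unadjusted p under 0.05 limma counted 455 sites (8.81%) and 16 Zfp sites. The median log2 difference, EB minus ESC after centring each library, was 0.01 over Zfp sites (SD 0.40 across sites) and -0.07 over all sites, and 81 of the 154 were above 0. In simulated widths at these sample sizes the same test recovered 28% of 2-fold and 85.5% of 4-fold changes, so most 2-fold differences would not be called.

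The Zfp sites with the lowest p did not overlap between the groups. A Zfp644 site in exon 5 of 7, chr5:106634795-106635429, covered 564, 581 and 572 bp in EBs and 171, 343 and 196 bp in ESCs (log2 difference 1.07, SE 0.29, limma adjusted p = 0.4028). A Zfp623 site, chr15:75948668-75949165, covered 259, 290 and 186 bp in EBs and 342, 368 and 385 bp in ESCs (log2 difference -0.87, SE 0.21, limma adjusted p = 0.3829). Neither passed the threshold.

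The Mettl3-knockout library shows which peaks are called without the main m6A methyltransferase subunit. It listed 2043 peaks, fewer than any EB or ESC library, and few lay on Zfp genes. A knockout peak lay on 15 of the 200 genes (7.5%, 95% Wilson interval 4.6 to 12), against 20.4% of all genes in at least 2 lists and 16% of the other genes with a long coding last exon. Such a peak also lay on 1 of 26 Zbtb genes (3.8%) and on 2 of 11 Zscan and Zkscan genes (18.2%). Restricted to genes detected in ESC replicates A, B and C alike, 14 of 132 Zfp genes (10.6%) had one, against 21.2% of the other genes. The knockout is 1 library of unknown depth, with calling settings not stated here.

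Knockout peaks on Zfp genes were mostly at transcript starts. Of 16 such peaks, 11 overlapped a peak of at least 1 ESC library and 5 overlapped none, of which 3 overlapped an EB peak. Of 15 placed on the canonical mRNA, 13 (86.7%) were centred within 200 nt of the start. The start position was not particular to Zfp genes: it held for 877 of 1082 knockout peaks (81.1%) of the other genes. Those other genes with a long coding last exon had 77.4%. In the 140 genes with the array in the last exon, 7 of 7 knockout peaks lay in upstream exons and 0 in the array, the stretch before it or the 3′ UTR, whereas ESC replicates A, B and C had 56, 150 and 127 array peaks in the same genes. Start peaks in an ESC library were found for 63 Zfp genes (31.5%), against 42.5% of the other genes, and 11 of the 63 (17.5%) had a knockout peak, against 35.2%.

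Of the ESC library peaks of Zfp genes centred within 200 nt of the start, 27.7% ± 14.0 (SD over 3 ESC libraries) overlapped a knockout peak. The counts were 3 of 7 in ESC replicate A, 9 of 59 in B and 6 of 24 in C, so the mean leans on few peaks. Of the other ESC peaks of Zfp genes, 0.0655% ± 0.113 did. That is 1 of 1200 peaks summed over the 3 libraries, in which the same place can count more than once. The other genes gave 43.1% ± 8.45 at starts and 1.44% ± 0.388 elsewhere.

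Start peaks found in all 3 ESC libraries and in the knockout were those of Zfp710 and Zfp706. At Zfp710 the knockout peak spanned 145 bp at chr7:80024841-80024985 and overlapped a peak of all 3 EB and all 3 ESC libraries. The main coding site of the same gene, in exon 2 of 5, covered 938, 964 and 621 bp in EBs and 845, 854 and 664 bp in ESCs, with no knockout peak. The start peak of Zfp706 (152 bp in the knockout) was likewise in all 6 libraries. Exceptions to the position were Zfp459, with a 106 bp knockout peak in the 3′ UTR that overlapped none of the 6 libraries, and Zfp64, whose knockout peak lay 377 nt from the start. The start peak of Zfp760 (116 bp in the knockout) also overlapped none of the 6 libraries. Of the 15 genes, Zfp655 alone had 2 knockout peaks.

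Finger arrays resemble each other, so short reads can fit more than 1 gene, and the handling of such reads is not stated. Of 509 Zfp sites that could be read along the mRNA, 428 (84.1%) shared no stretch of 36 nt with a transcript of another gene. In the finger array 74.5% of sites shared none. The share was lower still in the last-exon stretch before the first finger, at 70.7% (53 of 75 sites). More than 50% of such stretches were shared in 25 sites of 18 genes, Zfp747 among them. Zfp97 and Zfp960, neighbours on chromosome 17, have coding sequences of 1638 nt each that are 98.2% identical. Their first array sites covered 249, 239 and 435 bp (Zfp97) and 249, 266 and 435 bp (Zfp960) in EBs, and 419, 446 and 711 bp and 426, 369 and 680 bp in ESCs. Peaks at these 2 genes cannot be told apart.

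The TRIM28 pathway itself was checked as a list of 22 co-factors. Final peaks were present for 11 in EBs (50%), 9 in MEFs (40.9%) and 11 in ESCs (50%), and a knockout peak for 6 (27.3%). Over all 21951 annotated coding genes these shares were 25% in EBs, 23.8% in MEFs, 28.9% in ESCs and 8.37% in the knockout. That set was not restricted to genes whose transcript is present in these cells. Over genes in at least 2 final lists the knockout share was 20.4%. Setdb1 (the histone methyltransferase), Atrx and Daxx (a chromatin remodeller and its histone chaperone partner) and Uhrf1 (maintenance of DNA methylation) had one in all 3 final lists, and Trim28 itself in none of the lists or libraries.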

How the data were processed

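The 7 library files and 3 final lists, deposited by the authors, hold only peak positions and, in the final lists, gene symbols; they hold no other values. Replicates were joined into final lists by steps not stated here. The tools were TopHat2 2.0.10, CASAVA 1.8.2 and MACS 1.4.1, and the build mm10, per the submitters' processing notes, which state no role. Peaks were placed by their centre on the canonical coding transcript of each gene (GENCODE release M21 basic set, GRCm38), without regard to strand. A gene had a library peak when at least 1 bp overlapped an exon. Symbols were matched by name or gene ID, and through a RefSeq synonym in some list for 2 Zfp genes. MEF starts were read as counted from 0, so they may be off by 1 bp; printed positions count from 1.

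Widths of merged sites with a peak in all 6 EB and ESC libraries were compared as log2 values, centred per library, with limma 3.58.1 (lmFit, eBayes, Benjamini-Hochberg over all sites) in R 4.3.3. The test was checked on simulated widths of 5165 sites, with 200 changed. Other steps used Python 3.11.15, NumPy 2.4.6, SciPy 1.17.1, pysam 0.24.0 and matplotlib 3.10.9. Shares of single lists carry 95% Wilson intervals, and the others means ± SD over libraries. The replicates are called biological in the series' text. Shares over the Zfp genes were given no p-value, and all other genes in at least 2 lists give the background. Input and MEF libraries were not analysed here.

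The members, the lists of markers, co-factors and roles, and the tests were chosen with earlier results of these data known. Genes are named by rule: the 10 with most sites, the 10 with the widest final peak, up to 12 with a knockout peak, up to 6 per pattern of 2 lists, up to 8 without a last-exon peak, those found in 3 of 3 libraries of one type and at most 1 of 3 of the other, and a list of genes with known roles. Zfp97 and Zfp960 as identity examples, and the Zfp623 and Zfp644 sites of lowest p, were picked after their values were seen. The printed sequence windows were picked by hand and not by these rules. Peak widths showed no pairing of EB with ESC libraries by the letters A, B and C (correlations of deviations -0.10, 0.14 and 0.01). Unlike letters reached -0.14 and 0.12. Widths alone cannot show whether the cultures were handled in pairs.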

Additional observations from a re-analysis of the deposited data

How the results depend on the processing

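Of the alternatives computed, 60 of 68 stayed within the spread or within 1.5 times the count. The exceptions were the motif shares and 2 others. With 100 nt on either side of the centre, GGAC was near 63.1% of EB, 60.1% of MEF and 62.3% of ESC final Zfp peaks (all windows 46.1%, 45.8% and 45.1%). With DRACH the shares were 92.3%, 95.5% and 96.8% (all windows 86.3%, 86.5% and 86.7%). Zfp ESC peaks shared with MEFs fell to 55.5% when 50% of the peak had to overlap. With 1 peak per library at each site, 1 site was called by limma and 0 Zfp sites. Leaving out 1 library gave 124 to 162 genes with peaks in all the others, the highest without ESC replicate A, a last-exon difference (EB minus ESC) of -5.78 to -3.50 points, and 0 width calls. With the letter as a replicate block 0 sites were called. The last-exon difference of -4.76 points could not change under this block, because the letters are balanced between groups, although it is counted among the 60. The gene count was 211 with suffixed symbols, 136 in all 3 lists and 248 in at least 1. Chosen after seeing the data, the relative 3′ UTR density differed by -0.16 (EB minus ESC) without ESC replicate A, against -0.15 with it, and that of the coding end by 0.39, against -0.25. Unknown depth limits every absence of a peak.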
